A study of Mus musculus with 6 samples.

Results

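Reduced representation bisulfite sequencing (RRBS) was used to read DNA methylation in the dentate gyrus, the part of the hippocampus in which new neurons are made throughout adult life. The 6 libraries came from 6 female C57BL/6JRj mice aged 4.5 months, 1 library per mouse. From 6 weeks of age, 3 mice had lived in standard polycarbonate cages (STD) and 3 in an enriched environment (ENR), a large enclosure with tunnels and toys that a group of mice shared. All mice carried the same inbred background, and the dissected tissue held all cell types of the region, so that a shift in cell composition and a change within a cell type cannot be told apart. The question asked here was where in the genome methylation differed most from library to library, whatever the housing.

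The autosomes were divided into tiles of 1 kb. A tile was used when at least 5 cytosines had a value, and its methylation in a library was the mean percentage of methylated reads over these cytosines. Of 43457 such tiles, 986 (2.27%) had a standard deviation (SD) over the 6 libraries of at least 15 percentage points. They are called variable tiles below and held 6119 of 701789 cytosines. Because the 6 values themselves chose these tiles, their spread and the library that stood out are descriptions and were not tested. The 3 tiles just inside the limit had SDs of 15.003, 15.005 and 15.012, and the 3 just outside had 14.997, 14.999 and marginally under 15.

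In mammals, DNA methyltransferases add a methyl group to cytosines that precede a guanine (CpG). Promoters in CpG-rich sequence are mostly unmethylated and most other CpGs are mostly methylated. Levels between these extremes arise where cells of a tissue differ, or where only the copy from 1 parent is methylated, as at imprinted genes. RRBS reads start at CCGG, the cutting site of the enzyme MspI, so that neighbouring CpGs are often read on the same DNA molecules.

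Before any single tile is described, 2 libraries have to be set apart. Over all 43457 tiles the mean was 28.8%, 28.6% and 26.9% in STD replicates 1 to 3 and 28.7%, 28.4% and 25.6% in ENR replicates 1 to 3, so that both libraries numbered 3 were the lowest of their group. Promoters of marker genes were low in every library, with medians between 1.125% and 4.61% for granule neuron, CA pyramidal neuron, inhibitory neuron, astrocyte, oligodendrocyte, endothelial and choroid plexus genes, while the microglia list had 1 promoter with covered cytosines, at 18.8%, 16.2% and 13.1% in STD and 23.0%, 16.8% and 34.8% in ENR. At promoters of imprinted genes, however, the median was 22.4%, 21.6% and 6.78% in STD and 15.2%, 21.1% and 4.82% in ENR. The libraries numbered 3 stood below the other 4 there, at a gene class with levels between the extremes. No label names a batch, and the cause was not tested. The number of variable tiles, their location, read groups and flanks, the imprinted tiles, the gene lists and the comparison of ENR with STD are therefore also given without these 2 libraries.

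The stretches of sequence below come from 3 of the 5 tiles with the highest SD (Tanc1, Sh3bp4 and Nnat), from a further imprinted promoter (H13/Mcts2) and from a stretch that crosses from 1 variable tile into the next (Banp). They are shown because the covered CpGs of each are read together and differed little within most libraries, and were chosen with their values known. Each is the plus strand of mm10 (GRCm38) 5′ to 3′, and capitals mark the CpGs with a value. The Tanc1 stretch is chr2:59706889-59706982, the Sh3bp4 stretch chr1:89144172-89144260, the Nnat stretch chr2:157560408-157560488, the H13/Mcts2 stretch chr2:152686895-152686990 and the Banp stretch chr8:121973943-121974038.
Tanc1: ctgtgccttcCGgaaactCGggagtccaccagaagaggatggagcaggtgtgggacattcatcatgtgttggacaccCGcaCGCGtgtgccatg
Sh3bp4: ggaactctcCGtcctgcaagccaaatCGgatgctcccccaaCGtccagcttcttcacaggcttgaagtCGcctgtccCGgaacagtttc
Nnat: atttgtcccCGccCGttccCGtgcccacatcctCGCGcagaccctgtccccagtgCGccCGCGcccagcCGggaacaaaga
H13/Mcts2: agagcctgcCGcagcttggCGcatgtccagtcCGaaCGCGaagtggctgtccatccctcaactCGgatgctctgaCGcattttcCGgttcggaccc
Banp: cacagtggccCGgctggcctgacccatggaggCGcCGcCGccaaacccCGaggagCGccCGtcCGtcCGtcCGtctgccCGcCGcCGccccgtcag

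All 5 stretches hold exactly 1 CCGG, and their covered cytosines lie on 1 strand. In the Tanc1 stretch each of the 5 CpGs read 0% in STD replicate 3, ENR replicate 2 and ENR replicate 3. The same CpGs read between 79.3% and 80% in STD replicate 1 and between 72.2% and 83.3% in ENR replicate 1. At H13/Mcts2 the 8 CpGs stayed between 77.5% and 85.3% in STD replicate 2 and between 17.5% and 18.9% in ENR replicate 1. This was not so in every tile. At chr3:101034001-101035000, described below, the 5 CpGs ran from 8.33% to 100% in ENR replicate 3 and from 7.69% to 8.33% in STD replicate 3. Over all variable tiles the median range of the cytosines within a library was 44.3 points. Values of neighbouring CpGs on the same reads are not independent measurements.

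The tile with the highest SD (40.3 points, 5 cytosines) lay 55 bp from the start of a noncoding transcript of Tanc1, a scaffold protein of the postsynaptic density. It read 79.9%, 64.6% and 0% in STD replicates 1 to 3 and 74.4%, 0% and 0% in ENR replicates 1 to 3. Both groups thus held libraries near 0% and libraries over 60%. The next tile (SD 36.2) lay in an exon of Sh3bp4, a regulator of receptor endocytosis, outside its annotated untranslated regions. Here STD read 95.8%, 95.3% and 100% and ENR 89.7%, 75.6% and 5%, so that the spread came mainly from ENR replicate 3. STD and ENR did not overlap, with ENR replicate 1 the nearest to STD and ENR replicate 2 between it and ENR replicate 3.

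Intergenic tiles followed. At chr19:29147001-29148000, 11947 bp from the start of Mir101b, STD read 53.6%, 50.9% and 25.7% and ENR 73.4%, 100% and 1.00% (SD 34.8). ENR alone therefore spanned nearly the whole scale. At chr3:126030001-126031000, with no transcript start within 50 kb, STD read 73.5%, 96.8% and 51.4% and ENR 100%, 73.2% and 5.95%. A stretch of 32 bases at the covered cytosines of this tile occurs 119 times in the genome, so that the assignment of its reads is uncertain. In both intergenic tiles the library numbered 3 was the lowest of each group.

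The fifth tile lay 278 bp from the start of Nnat, an imprinted gene expressed from the paternal copy that sits in an intron of Blcap. STD read 42.8%, 9.90% and 4.24% and ENR 93.5%, 20.5% and 4.30% over 9 cytosines (SD 34.7). ENR replicate 1 stood 83.6 points above the median of the other 5 libraries. The 4 cytosines covered within 1 kb on either side of the tile did not share this, as ENR replicate 1 departed by 1.10 points there.

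The remaining 5 of the 10 tiles with the highest SD showed mixed patterns. An intronic tile of Entpd5, a nucleotidase of the endoplasmic reticulum, read 72.2%, 77.9% and 20% in STD and 79.3%, 15.6% and 7.5% in ENR. An exonic tile of Ctnna3, which encodes an alpha-catenin of cell junctions, read 64.1%, 67.5% and 1.25% in STD and 86.1%, 65.1% and 16.1% in ENR. Both genes had a low set made up of libraries from both groups. Between genes at chr3:101034001-101035000, 5291 bp from Cd101, the range ran from 7.82% in STD replicate 3 to 94.0% in STD replicate 1. In Zfp618, a zinc finger gene, ENR replicate 3 read 0% while the other 5 libraries read between 45.9% and 90.2%. Add1, which encodes the cytoskeletal protein adducin 1, likewise had its lowest value in ENR replicate 3 (5.95%) and its other values between 38.9% and 90.3%. In all 10 tiles a replicate 3 had the lowest value, which ENR replicate 2 shared in 1 of them (Tanc1, 0%), and all cytosines departed the same way. In 8 of the 10 tiles the covered cytosines formed a single read group, meaning same-strand cytosines with gaps of at most 75 bp.

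**Figure D1:**
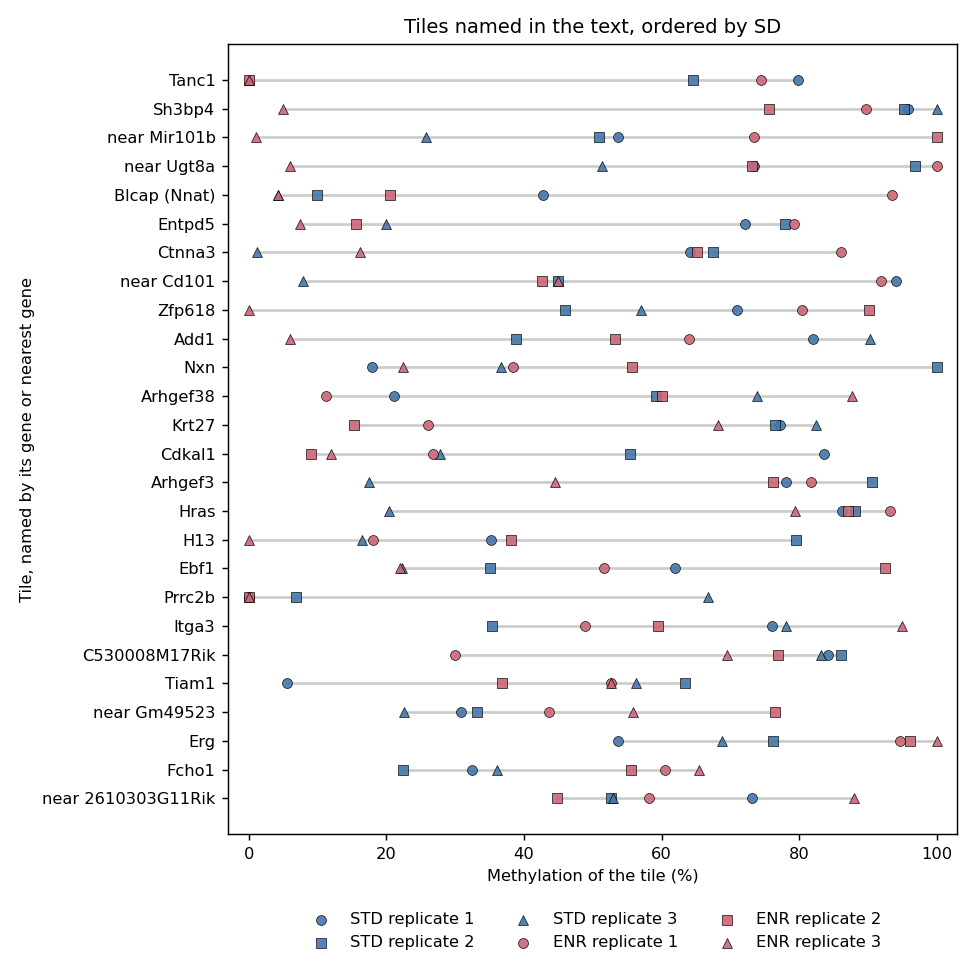
Methylation (%, x axis) of 26 tiles in the 6 libraries, 1 row per tile with its gene or nearest gene, ordered from the highest SD (Tanc1, 40.3 points) downward. Blue is STD, red is ENR, the symbols give the replicate number and the grey line joins the lowest and highest library; triangles (replicates 3) lie at the low end of all of the 10 uppermost rows, in the Tanc1 row together with ENR replicate 2 at 0%.

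Over all 986 variable tiles the mean was 57.1%, 56.9% and 40.9% in STD replicates 1 to 3 and 57.2%, 55.0% and 30.2% in ENR replicates 1 to 3. The 4 libraries numbered 1 and 2 were close to each other, and both replicates 3 lay far below them. ENR replicate 3 read under 10% in 171 tiles and STD replicate 3 in 99, against 17 to 34 in the other libraries. A value over 90% was found in 12 tiles of ENR replicate 3, in 41 of STD replicate 3 and in 52 to 67 of each of the others. The median range between the lowest and the highest library was 46.8 points.

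**Figure D2:**
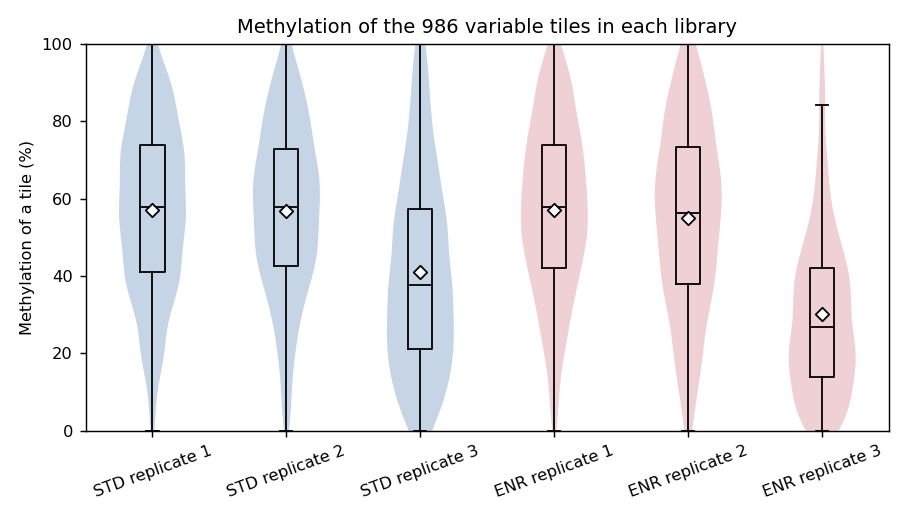
Methylation (%, y axis) of the 986 variable tiles in each library. The shaded shape is the distribution over tiles, the box spans the quartiles with the median as a line, whiskers reach the furthest tile within 1.5 box lengths and the diamond is the mean; the diamonds stand at 55.0 to 57.2% in replicates 1 and 2, at 40.9% in STD replicate 3 and at 30.2% in ENR replicate 3.

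For each tile, the departing library was the one farthest from the median of the other 5. ENR replicate 3 departed downward in 429 tiles (43.5%) and upward in 6. STD replicate 3 departed downward in 157 (15.9%) and upward in 18. The other 4 libraries departed upward in 316 tiles and downward in 60, so that their direction was mostly the opposite one. Among the 7740 tiles that were not variable and had a mean from 20% to 80%, ENR replicate 3 departed downward in 29.4% and STD replicate 3 in 14.3%. These 2 kinds of departure were thus the most frequent ones outside the variable tiles as well, with a smaller share for each.

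A replicate 3 lay below all libraries numbered 1 and 2 in 818 variable tiles (83.0%) and shared the lowest value with one of them in 6. Both replicates 3 lay below all other libraries in 448 (45.4%), compared with 14.6% of all tiles. The latter include 23826 tiles with a mean under 10%, so that these shares are not matched for methylation level. Each variable tile was then divided at the largest gap between neighbouring values. ENR replicate 3 stood alone on the low side in 273 tiles, STD replicate 3 alone in 75 and both together in 152. Exactly the 3 ENR libraries formed the low side in 6 tiles and exactly the 3 STD libraries in 2. These are 0.609% and 0.203% of the variable tiles, beside 0.607% and 0.181% of the 7740 tiles that were not variable and had a mean from 20% to 80%. Any 3 libraries stood against the other 3 in 97 variable tiles. The largest gap reached 30 points in 190 tiles (19.3%).

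**Figure D3:**
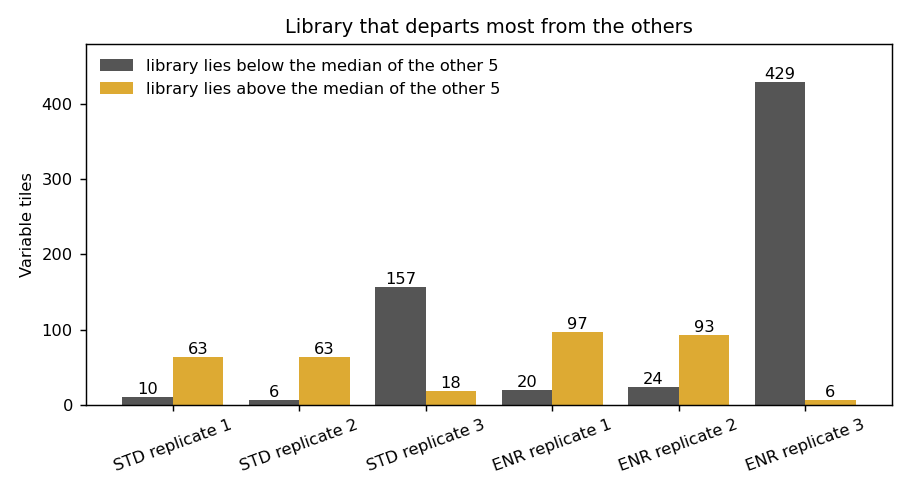
Number of variable tiles (y axis) in which each library (x axis) lies farthest from the median of the other 5, below it (grey) or above it (yellow). ENR replicate 3 accounts for 429 tiles below and 6 above, while each library numbered 1 or 2 has more tiles above than below.

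The largest downward and upward departure of each library was examined next. In STD replicate 1 the lowest was an intronic tile of Tiam1, an activator of the GTPase Rac1 that shapes dendritic spines. It read 5.56%, 63.4% and 56.2% in STD and 52.7%, 36.8% and 52.6% in ENR, so that STD replicate 1 was alone at the bottom. The 4 covered cytosines in its flanks went the other way, with a departure of 13.1 points in STD replicate 1. In STD replicate 2 the lowest lay near a transcript start of the integrin gene Itga3, at 35.3% against 48.8 to 95% in the other libraries. The highest in STD replicate 2 was an intronic tile of Nxn, a redox regulator of Wnt signalling, at 100% against 17.9 to 55.7%.

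STD replicate 3 was lowest near a transcript start of the GTPase gene Hras, where it read 20.4% and the others read 79.5 to 93.2%. Its highest departure covered the transcription start of Prrc2b, at 66.7% with 0 to 6.84% elsewhere. In ENR replicate 1 the lowest tile was a promoter tile of C530008M17Rik, at 30.03% against 69.6 to 86.1% over 12 cytosines. The 34 covered cytosines in the flanks of this tile did not share the drop, with a departure of -1.08 points.

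ENR replicate 2 departed furthest downward 128 bp from the start of Krt27, a keratin of the hair follicle. The library read 15.3% there, with ENR replicate 1 also low (26.0%) and the others at 68.2 to 82.4%. The 3 covered cytosines in the flanks went the other way, with a departure of 6.48 points. ENR replicate 2 departed furthest upward in an intron of Ebf1, a transcription factor gene, at 92.5% against 22.0 to 62.0%. For ENR replicate 3 the upward departures were few and smaller. The largest was an intergenic tile at chr9:98178001-98179000, 8453 bp from 2610303G11Rik, at 88.0% against 44.8 to 73.1%. Every library was thus the departing one at some tile in each direction, but the downward departures of replicates 3 were the most numerous.

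Within the tiles the cytosines mostly departed in 1 direction, although their levels differed. Of the 6119 cytosines, 93.7% departed in the same direction as their tile, and in 703 tiles (71.3%) all did. In the 526 tiles with at least 2 cytosines on each strand, both strands departed in the direction of the tile in 500 (95.1%), and both by at least 15 points in 409 (77.8%). The mean range of the cytosines within a library was at least as wide as the range of the tile between libraries in 480 tiles (48.7%). As the tile mean is made of these cytosines, this describes the tiles and is not a test.

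Cytosines outside a tile had no part in choosing that tile. Flanks of neighbouring variable tiles, however, include the other tile, itself chosen by its SD, and these tiles were kept. At least 3 flanking cytosines were covered within 1 kb on either side of 188 variable tiles. There the departing library departed in the same direction by at least 5 points in 88 (46.8%) and in the opposite direction in 22 (11.7%). In the 1952 tiles that were not variable and had a mean from 20% to 80%, the shares were 30.1% and 14.1%. With only flanking cytosines more than 150 bp from those of the tile, the share in the same direction was 44.0% of 159 variable tiles and 26.6% of 1611 others. In the other 78 of the 188 tiles the flanks departed by less than 5 points.

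Where ENR replicate 3 departed downward, its flanks were lower too in 46 of 80 tiles (57.5%) and higher in 7. Among 539 tiles not variable, with a mean from 20% to 80% and the same downward departure, its flanks were lower in 43.8%. For STD replicate 3 the flanks were lower in 13 of 21 tiles and higher in 0. Among 257 tiles not variable, chosen in the same way, 31.5% had lower flanks. Where a library numbered 1 or 2 departed upward, its flanks were higher in 27 of 69 tiles and lower in 10. The numbers higher and lower were 10 and 0 of 16 for STD replicate 1, 5 and 2 of 16 for STD replicate 2, 6 and 4 of 21 for ENR replicate 1 and 6 and 4 of 16 for ENR replicate 2. Both neighbouring tiles at Banp, whose flanks are each other, are among the 5 for STD replicate 2. Over the 4 libraries, the shares higher and lower were 27.6% and 12.7% in 726 tiles not variable, chosen in the same way. Where a library numbered 1 or 2 departed downward, its flanks were lower in 2 of 17 tiles and higher in 4. With tiles chosen over the 4 libraries numbered 1 and 2 alone, the flanks departed in the same direction in 37 of 126 tiles (29.4%). This compares with 46.8% when all 6 libraries chose the tiles. The share in tiles not variable over these 4 libraries was not computed, so that 29.4% cannot be set beside it.

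**Figure D4:**
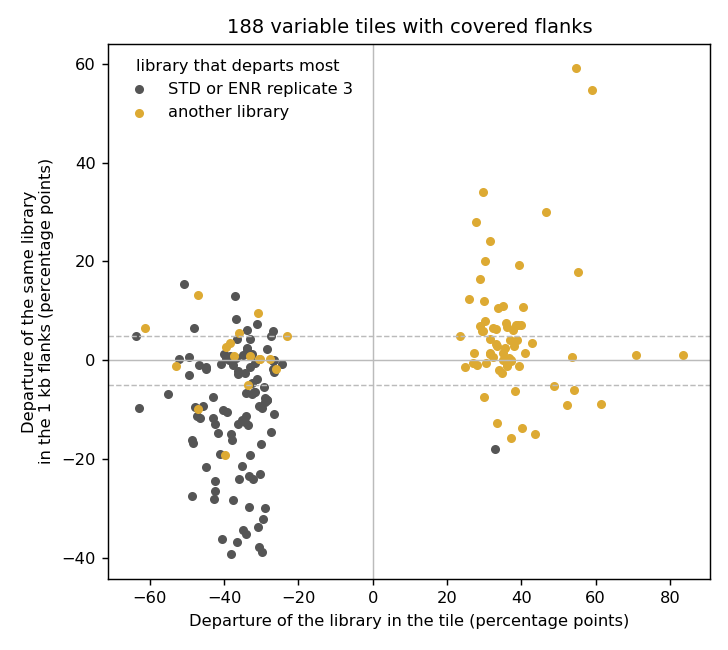
Departure of the departing library in the 1 kb flanks (y axis, percentage points) against its departure in the tile (x axis, percentage points) for the 188 variable tiles with at least 3 covered flanking cytosines. Grey points are tiles in which a replicate 3 departs, yellow points tiles of the other libraries and dashed lines mark 5 points in either direction; 88 tiles have flanks beyond a dashed line in the direction of the tile and 22 in the opposite direction.

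Variable tiles had intermediate methylation. Their median mean level was 48.4% and 913 of them (92.6%) had a mean from 20% to 80%, while the median over all tiles was 6.23%. Tiles were variable in 15.7% of those with a mean of 40 to 60%, in 7.80% at 20 to 40% and in 10.1% at 60 to 80%. Under 10% the number was 1 of 23826 and over 90% it was 0 of 5349. An SD of 15 points is hard to reach near either end of the scale, so that the rule itself favours intermediate tiles.

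The tiles were located next. Of the variable tiles 18.3% lay within 1 kb of a transcript start, 17.0% in exons, 33.7% in introns and 31.0% between genes. The corresponding shares of all tiles were 53.2%, 8.58%, 16.3% and 21.9%. Among tiles with a mean from 20% to 80%, however, 9.69% were variable at promoters, 11.6% in exons, 11.0% in introns and 10.1% between genes. The 4 shares thus lay close together among tiles of intermediate methylation. The median distance to a transcript start was 8316 bp, against 657 bp over all tiles, and 90 variable tiles (9.13%) were more than 50 kb away.

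In sequence, variable tiles were poorer in CpG than the tiles RRBS usually covers. The median was 19 CpGs per tile and 48.9% G and C, compared with 30 CpGs and 52.5% over all tiles. A CpG count of 40 or more in tiles of intermediate methylation went with 11.5% variable tiles, and one under 20 with 10.1%. Covered cytosines in repeats, as masked in the reference, were found in 16.02% of variable and 29.9% of all tiles. A stretch of 32 bases present more than once in the genome overlapped covered cytosines in 7.30% and 12.4%. Among tiles with a mean from 20% to 80%, 10.3% were variable with such a stretch and 10.6% without, and 7.65% with a masked cytosine and 11.4% without. Counted per cytosine, 6.11% were masked in variable and 6.34% in all tiles. Per chromosome, 1.61% (chromosome 14) to 3.01% (chromosome 16) of the tiles were variable. These shares are given side by side and were not tested.

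Coverage was compared in the same way. Variable tiles had a median of 6 covered cytosines in 2 read groups over 138 bp, and all tiles a median of 10 in 3 read groups over 248 bp. Exactly 5 cytosines, the minimum, were covered in 480 variable tiles (48.7%) and in 16.2% of all tiles. Among tiles with a mean from 20% to 80%, 33.8% were variable with 1 read group, 11.5% with 2, 5.96% with 3 and 2.69% with 4 or more. The share fell likewise from 17.8% with 5 cytosines to 2.80% with 10 or more. Read numbers per site are unknown beyond the authors' minimum of 10, at which a site of 50% methylation has a sampling SD of 15.8 points. The part of read sampling in the spread was not tested.

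**Figure D5:**
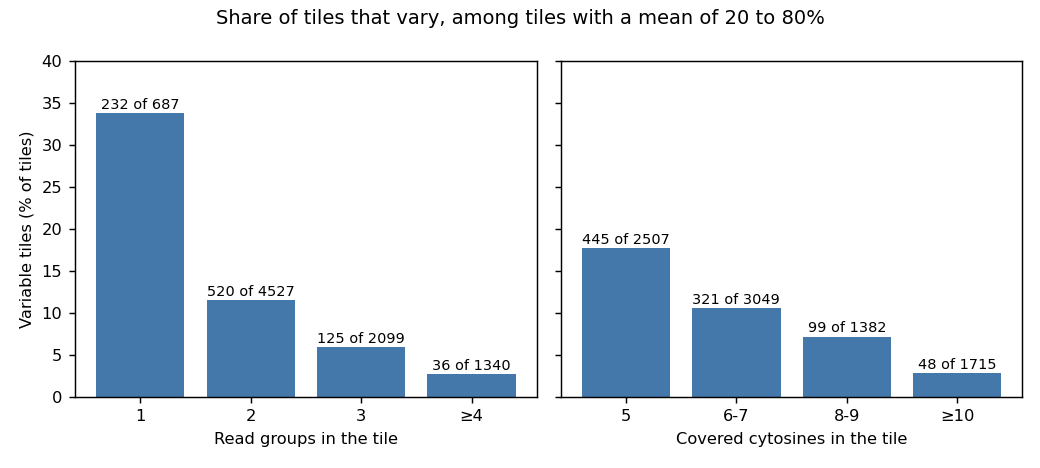
Share of tiles that are variable (y axis, % of tiles with a mean from 20% to 80%) by the number of read groups (left) and of covered cytosines (right) in the tile. Numbers over the bars give variable tiles of all tiles in the class; the share falls from 33.8% with 1 read group to 2.69% with 4 or more, and from 17.8% with 5 cytosines to 2.80% with 10 or more.

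The tiles with the most read groups did not show the libraries more evenly. Among the 170 variable tiles with at least 3 read groups, a replicate 3 departed downward in 124 (72.9%), and ENR replicate 3 in 91. With 1 read group a replicate 3 departed downward in 48.9% and with 2 in 60.4%. Only 52 variable tiles had 10 or more cytosines (0.236% of 22010 such tiles), and ENR replicate 3 departed downward in 32. The highest SD among these (23.7) belonged to an exonic tile shared by Gpr39, a zinc-sensing receptor, and Lypd1. It read 71.1%, 55.6% and 21.7% in STD and 69.0%, 62.6% and 18.2% in ENR. Both replicates 3 were far below the other 4 libraries, which overlapped between the groups.

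Promoter tiles of protein-coding transcripts numbered 86 (8.72% of the variable tiles, beside 45.5% of all tiles). With a mean from 20% to 80%, 79 of 838 such promoter tiles were variable (9.43%), beside 10.6% of all tiles at that level. Beside Nnat and Krt27, the highest SDs were found at Arhgef38, Arhgef3 and H13/Mcts2. The Arhgef38 tile read 21.1%, 59.1% and 73.9% in STD and 11.2%, 60% and 87.7% in ENR, with the libraries numbered 1 low and those numbered 3 high in both groups. Arhgef3 read 78.1%, 90.7% and 17.5% in STD and 81.7%, 76.3% and 44.5% in ENR, the reverse for replicates 3. Mcts2, an imprinted retrogene within H13, had 35.1%, 79.5% and 16.4% in STD and 18.04%, 38.1% and 0% in ENR. Thus 5 of the 6 libraries were under 40% and STD replicate 2 was above. The 12 covered cytosines in its flanks went the other way, with a departure of -8.73 points in STD replicate 2.

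Imprinted genes, on a list of 48, overlapped 104 tiles (gene body and 1 kb upstream), of which 21 (20.2%) were variable, compared with 2.27% of all tiles. Of these 21 tiles, 18 lay at promoters, and the other 3 were exonic tiles of Blcap, Peg3 and Cdh15. With a mean from 20% to 80%, 19 of 54 imprinted tiles (35.2%) and 10.6% of all tiles were variable. With at least 3 read groups in addition, the numbers were 3 of 20 (15%) and 4.68%. The lowest library was a replicate 3 in 18 of the 21 tiles, and both replicates 3 lay below the other 4 in 12. The mean over the 21 tiles was 40.9%, 39.02% and 16.4% in STD and 39.5%, 35.3% and 13.6% in ENR. STD and ENR did not overlap in 1 of the 21, beside 9.12% of all tiles.

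Gnas, which encodes the alpha subunit of the stimulatory G protein and is imprinted with several promoters and the antisense transcript Nespas, held 6 of the 21 tiles, 50% of its 12 tiles. They formed 3 pairs of neighbouring tiles. The first pair began at chr2:174284001 and read 29.4%, 25% and 0% in STD and 33.7%, 32.2% and 0% in ENR, and then 40.5%, 24.0% and 8.40% in STD and 44.1%, 40.7% and 10.7% in ENR. In this pair both replicates 3 were lowest and the groups overlapped. The flanks of each tile, which here include the other tile of the pair, departed by -32.1 and -23.9 points in STD replicate 3.

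The second pair at Gnas began at chr2:174296001. Its first tile read 61.6%, 42.1% and 28% in STD and 56.0%, 44.6% and 6.54% in ENR. The adjacent tile read 42.1%, 52.2% and 53.2% in STD and 27.2%, 18.99% and 11.1% in ENR, a difference of -30.1 ± 7.10 points (SE, limma, adjusted p = 0.999). All ENR libraries were lower there, and it was the 1 imprinted tile without overlap. The tile beside it did not share this order. The third pair, 82 bp and 374 bp from a Gnas start, spanned 5.07% to 65.3% in its first tile and 12.7% to 51.8% in its second.

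At Snrpn and Snurf, the promoter region of the Prader-Willi imprinting centre, 2 neighbouring tiles were variable. They read 44.8%, 52.8% and 14.1% in STD and 51.6%, 32.04% and 8.80% in ENR, and then 27.5%, 25.9% and 1.27% in STD and 1.95%, 35.5% and 1.82% in ENR. ENR replicate 1 was high in the first tile and as low as both replicates 3 in the second. Inpp5f, a phosphoinositide phosphatase gene with an imprinted short transcript, read 4.45%, 47.8% and 11.8% in STD and 79.1%, 41.3% and 24.0% in ENR over 7 cytosines. Peg13, an imprinted noncoding RNA gene within Trappc9, gave one of the few variable tiles with 4 read groups, at 37.3%, 43.6% and 51.4% in STD and 76.3%, 40.7% and 16.02% in ENR. In these 2 tiles ENR replicate 1 was the highest library. The other imprinted tiles were those of Peg10 and Sgce, Grb10, Commd1 with Zrsr1 (2 tiles), Slc38a4 and Igf2, with SDs between 15.1 and 17.7 points.

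The other lists held between 0 and 6 variable tiles each. The list drawn up for dentate granule neurons had 4 of 65 (6.15%, beside 2.27% of all tiles), at Bcl11b, Dsp, Prox1 and Rbfox3. Among tiles with a mean from 20% to 80% these were 4 of 21, beside 10.6% of all such tiles. The tile of Prox1, a transcription factor that granule neurons need, read 72.2%, 61.0% and 40.5% in STD and 74.4%, 63.0% and 30.8% in ENR, with both replicates 3 lowest. Bcl11b read 59.4%, 54.7% and 25.1% in STD and 63.0%, 46.1% and 17.98% in ENR and likewise had both replicates 3 lowest. The tile of Dsp, which encodes desmoplakin, did not, with 5.67%, 43.0% and 14.0% in STD and 54.1%, 38.0% and 30.8% in ENR. In the tile of Rbfox3, STD replicate 2 departed most, by 37.3 points upward. Microglia genes had 1 of 15 (the receptor Csf1r), oligodendrocyte genes 1 of 17 (Cnp, a myelin enzyme), endothelial genes 1 of 13 (Flt1, a VEGF receptor) and CA pyramidal genes 1 of 34 (the kainate receptor Grik4). Inhibitory neuron, astrocyte and choroid plexus genes had 0 of 31, 0 of 14 and 0 of 12. Few tiles of these lists had a mean from 20% to 80%. There the numbers were 1 of 7 for microglia, 1 of 3 each for oligodendrocyte and endothelial genes, 1 of 9 for CA pyramidal genes, 0 of 2 for inhibitory neurons, 0 of 6 for astrocytes and 0 of 3 for choroid plexus, so that the counts of 0 cannot set these lists apart from granule neuron genes.

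Among genes of synapses and axons, glutamate receptors had 3 of 102 tiles (Grik3, Grik4 and Grin3b), axon guidance genes 5 of 278, synaptic adhesion and scaffold genes 2 of 186 and potassium channels 1 of 119 (Kcnk2). These are 2.94%, 1.80%, 1.08% and 0.840% of their tiles, beside 2.27% of all tiles. With a mean from 20% to 80% the numbers were 3 of 21, 5 of 68, 2 of 33 and 1 of 17, beside 10.6% of all such tiles. Sema4b, a semaphorin, read 32.9%, 56.5% and 48.1% in STD and 43.7%, 65.1% and 0% in ENR. In Nrxn2, a presynaptic adhesion molecule, ENR replicate 3 read 25.8% and the other libraries 61.8 to 75.02% over 9 cytosines. The tiles of the netrin receptor Unc5b and the ephrin receptor Epha6 also had ENR replicate 3 alone at the bottom, at 30.8% and 40.9%. Tet3, an enzyme that oxidises methylcytosine, gave the 1 variable tile of 46 (2.17%) for DNA methylation machinery, with 42.9%, 45.01% and 14.2% in STD and 49.6%, 31.6% and 1.38% in ENR.

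Genes with a neighbouring IAP retrotransposon known for variable methylation between inbred mice had 1 variable tile of 41 (2.44%, beside 2.27% of all tiles), in an exon of the ubiquitin ligase gene Rnf157. It read 67.2%, 46.6% and 34.6% in STD and 19.2%, 19.8% and 24.2% in ENR. STD and ENR did not overlap, with STD replicate 3 and ENR replicate 3 the nearest libraries. Genes named in the study had 6 of 85 (7.06%), beside 2.27% of all tiles. Among tiles with a mean from 20% to 80% the numbers were 6 of 40, beside 10.6% of all such tiles. The 6 were 3 intronic tiles of Tiam1, 2 tiles at Tshz2, a zinc finger gene, and the promoter tile of Flt1. The paper named Flt1 on data that include these samples, but chose Tiam1 and Tshz2 on RRBS of young and aged mice. The promoter tile of Flt1 read 39.3%, 39.3% and 27.9% in STD and 27.1%, 75.8% and 21.1% in ENR, with ENR replicate 2 alone at the top.

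Of all genes, 54 held at least 2 variable tiles and 7 at least 3. Beside Gnas and Tiam1, Camk2b, the beta subunit of a calcium-dependent kinase of synapses, had 3 of its 8 tiles, Bicc1, an RNA-binding protein, 3 of 9, and Rora, a nuclear receptor, 3 of 11, beside 2.27% of all tiles. The other 2, Gm20388 (15 of 292) and Fgfr2 (3 of 88), have gene models of 4434882 bp and 2960900 bp and are not described further. Genes were picked out for these counts, which are a description. Of the 3 tiles in Camk2b, 2 had 10 or more cytosines. The first read 49.9%, 37.4% and 36.1% in STD and 72.8%, 16.9% and 11.9% in ENR. The second, where a stretch of 32 bases occurs 62 times in the genome, read 47.7%, 72.1% and 39.95% in STD and 70.4%, 51.6% and 24.8% in ENR. ENR replicate 3 was lowest in both, while the highest library differed.

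Averaged over the variable tiles, STD libraries had 51.7% ± 9.27 methylation (SD, n = 3) and ENR libraries had 47.4% ± 15.01 (SD, n = 3). This difference of -4.21 points was smaller than the spread within either group, turned to 4.43 points without ENR replicate 3 and was -0.925 without both replicates 3. In this respect ENR was lower in 63.6% of the variable tiles with all libraries and in 52.0% without the replicates 3. All ENR libraries lay below all STD libraries in 52 variable tiles (5.27%), compared with 5.38% of all tiles, and above them in 12 (1.22%), compared with 3.74% of all tiles. In either direction 6.49% of the variable tiles and 9.12% of all tiles did not overlap.

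All 986 variable tiles entered the limma comparison of ENR with STD over 43386 tiles. At a Benjamini-Hochberg adjusted p under 0.05, limma called 0 tiles (0.0% of those tested), variable or not, and the smallest adjusted p was 0.999. An unadjusted p under 0.05 was found in 72 variable tiles (7.30%; 58 with ENR lower and 14 with ENR higher) and in 1787 of all tiles (4.12%; 2.53% with ENR lower and 1.59% with ENR higher). Without ENR replicate 3 the direction turned, with 41 variable tiles lower and 71 higher in ENR, and without both replicates 3 the numbers were 77 and 64. The tiles were chosen by the same values, so nothing is read from these counts.

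Single tiles without overlap showed how the groups differed there. ENR was lower by 42.3 ± 12.5 points (SE of limma) at the Krt27 tile and lower by 39.6 ± 13.3 in an intron of Cdkal1, a tRNA-modifying enzyme. Cdkal1 read 83.6%, 55.4% and 27.8% in STD and 26.8%, 9.09% and 12.0% in ENR, so that STD replicate 3 and ENR replicate 1 nearly met. The pair of neighbouring tiles at Banp, a gene for a DNA-binding protein of CpG-rich promoters, lay 131 bp and 180 bp from the start of the processed pseudogene Gm17709, which was the nearest start. A stretch of 32 bases at their covered cytosines occurs 3 times in the genome, so that the assignment of reads to this locus is uncertain. The pair read 41.3%, 62.7% and 18.03% in STD and 3.63%, 0% and 0% in ENR, and then 40.1%, 58.0% and 16.9% in STD and 3.26%, 0% and 0% in ENR. Their 13 cytosines lie in the single stretch printed above, which a tile border divides, so that the pair is 1 stretch and not 2 independent tiles.

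ENR was higher by 30.7 ± 5.52 points (SE of limma) 792 bp from the start of Erg, a transcription factor of endothelial cells. Erg read 53.6%, 76.2% and 68.7% in STD and 94.6%, 96.1% and 100% in ENR, and the gap between the groups exceeded the spread within ENR but not that within STD. In an exon of Fcho1, which initiates clathrin-coated pits, STD read 32.4%, 22.4% and 36.1% and ENR 60.5%, 55.6% and 65.4%. At chr15:85012001-85013000, between genes, STD read 30.8%, 33.2% and 22.5% and ENR 43.7%, 76.4% and 55.9%. The adjusted p was 0.999 in limma for each of these tiles.

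Neighbouring variable tiles were otherwise rare. There were 6 pairs and no longer run. Beside Gnas, Snrpn and Banp, a pair lay at Dusp3, a dual-specificity phosphatase gene. It read 54.5%, 52.1% and 19.6% in STD and 50.9%, 25.8% and 15.8% in ENR, and then 38.7%, 33.4% and 36.8% in STD and 47.2%, 35.0% and 2.57% in ENR. ENR replicate 3 was lowest in both tiles and STD replicate 3 was low in the first only.

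Without both replicates 3, 501 tiles reached an SD of 15 points over the other 4 libraries, and 360 of them were among the 986. Of the 986 tiles, 626 (63.5%) fell under the limit. The 501 tiles lay at promoters in 19.6%, in exons in 20.6%, in introns in 34.7% and between genes in 25.1%. Among tiles with a mean from 20% to 80% over these 4 libraries, 23.02% were variable with 1 read group, 5.72% with 2, 1.73% with 3 and 0.650% with 4 or more. Imprinted genes held 10 of the 501 tiles, which is 9.62% of their 104 tiles beside 1.15% of all tiles. Genes named in the study held 8 of 85 (9.41%), granule neuron genes 2 of 65 (3.08%), oligodendrocyte genes 2 of 17 (11.8%) and glutamate receptors 2 of 102 (1.96%). Endothelial genes held 1 of 13, IAP neighbours 1 of 41 and potassium channels 1 of 119, and the other lists held 0. In the set over 4 libraries, ENR replicate 2 departed downward in 126 tiles and upward in 85, ENR replicate 1 downward in 56 and upward in 76, STD replicate 1 downward in 23 and upward in 58 and STD replicate 2 downward in 26 and upward in 51. After quantile normalization, which gives each library the same distribution over tiles, 612 tiles were variable and 564 of them were among the 986. ENR replicate 3 still departed downward in 155 of these 612 (25.3%) and STD replicate 3 in 78 (12.8%). No other library departed downward as often, but ENR replicate 1 departed upward in 78 (12.8%) and ENR replicate 2 in 66 (10.8%).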

How the data were processed

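RRBS libraries of 6 mice were used. The authors trimmed reads with Trim Galore and cutadapt 1.8.1, removed 2 more bases from reads with adapter, aligned them to mm10 with Bismark and kept cytosines with at least 10 reads in methylKit 1.5.2. The labels name Trim Galore 0.4.0 and Bismark 0.16.1 and the methods give later versions. The deposited values are the percent of methylated reads at 890041 cytosines, 866851 of them on autosomes, without read numbers, so that the depth is unknown and no interval is given. All libraries weigh equally.

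Tile means, SDs (n - 1) and departures were computed in Python 3.11.15 with pandas 2.3.3. Locations came from GENCODE M21 and sequence from RefSeq GRCm38.p6. A promoter tile had a covered cytosine within 1 kb of any transcript start. Tiles that varied at all were compared with limma 3.58.1 in R 4.3.3 on the percent scale with a variance trend, after tests of the code on simulated data. Each library was 1 mouse.

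The variable tiles, the 16 gene lists and the rule for named tiles were chosen with earlier results of these data known. Named were the 10 highest SDs, the largest departure of each library in each direction, the 5 highest SDs at protein-coding promoters, 3 tiles per direction without overlap, up to 3 per list, 3 on each side of the limit and neighbouring tiles. Gpr39, Camk2b, Bicc1, Rora and the imprinted tiles beyond 3 were named after their values were seen.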

Additional observations from a re-analysis of the deposited data

How the results depend on the processing

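The number of variable tiles (986) depended on the settings: it was 255 at an SD of at least 20 points, 4137 with at least 3 cytosines per tile, 52 with at least 10, 2349 with the median of the cytosines and 612 after quantile normalization. Chosen after seeing the data, it was 501 without both replicates 3 and 170 with at least 3 read groups. It ran from 682 (without ENR replicate 3) to 1178 with 1 library left out. ENR replicate 3 departed most in 44.1%, which became 61.5% with at least 10 cytosines, 54.7% with at least 3 read groups, 37.2% with the median and 31.4% after quantile normalization, the highest share of any library in the main set. The promoter share of 18.3% became 14.5% with at least 3 cytosines, 30.8% with at least 10, 12.9% with at least 3 read groups and 8.72% with protein-coding starts only. Tiles without overlap (6.49%) became 1.92% with at least 10 cytosines and 9.15% after quantile normalization. The ENR minus STD difference of -4.21 points ran from -9.57 to 4.43 with 1 library left out and was positive only without ENR replicate 3. The flank share of 46.8% became 29.4% without both replicates 3 and ran from 40.7% to 44.4% over its other 4 alternatives.

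Without the variance trend limma called 1 tile, which was not variable (smallest adjusted p 0.0449), and with every other alternative it called 0. The share of variable tiles at an unadjusted p under 0.05 (7.30%) was 4.67% without the trend, 11.1% after quantile normalization, 3.85% with at least 10 cytosines, 14.3% without both replicates 3 and from 6.09% to 12.2% with 1 library left out. With the replicate number as a block it was 13.4%, and 0 tiles were called. Deviations of same-numbered libraries correlated across tiles at 0.151, 0.0833 and 0.296, STD replicate 2 correlated better with ENR replicate 1 (0.113), and no label pairs the mice, so that the number is not treated as a pairing. The causes of these changes were not tested. Read depth, unknown here, limits every single tile.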
